A study of Mus musculus with 6 samples.

Results

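The respiratory chain genes described here were the 115 of 53647 annotated mouse genes whose symbols begin with Ndufa, Ndufb, Ndufc, Ndufs, Ndufv, Uqcr, Cox4, Cox5, Cox6, Cox7, Cox8, Atp5, mt-Nd, mt-Co, mt-Cytb or mt-Atp, leaving out pseudogenes marked -ps, together with Sdha, Sdhb, Sdhc, Sdhd, Cyc1 and Cycs. The rule uses names and no measured value. Of these, 102 are coded in the nucleus and 13 in mitochondrial DNA. By name, 50 belong to complex I (43 nuclear and 7 mitochondrial), 8 are Ndufaf factors that assemble complex I, 4 belong to complex II, 10 to complex III (9 nuclear and 1 mitochondrial), 22 to complex IV (19 nuclear and 3 mitochondrial) and 20 to complex V (18 nuclear and 2 mitochondrial), and Cycs codes for cytochrome c. The study isolated cells from the proximal pulmonary arteries (PAs) of young and old mice and read their 3′ RNA ends with 10x droplets, and adventitial fibroblasts (FBs) were a class it examined for aerobic respiration genes with age. Here the respiratory chain genes were followed across all abundant cell types. The mice were wild-type C57BL/6J animals that received no treatment. The young group held replicate 1 at 3 months and replicate 2, a female, at 3 months. The study's text gives 3 young mice, 2 males and 1 female, so replicate 1 was male by that text. Libraries of 2 of these 3 mice were available here. The old group held replicate 1 at 20 months and replicate 2 at 24 months, both male by the study's text, replicate 3, a female at 28 months, and replicate 4, a male at 27 months. Each library was 1 mouse, so sex and colony (breeder or aging colony for the old mice) were not balanced over the ages, and arteries were dissociated with surrounding tissue attached.

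The respiratory chain passes electrons from NADH (complex I) and succinate (complex II) through complex III and cytochrome c to oxygen at complex IV, and the proton gradient this builds drives ATP synthesis at complex V. Its subunits come from both genomes: a few hydrophobic core subunits are coded in mitochondrial DNA and all others in the nucleus, from where they are imported. Some nuclear subunits exist as tissue isoforms, such as the heart and skeletal muscle forms Cox6a2, Cox7a1 and Cox8b, the lung and vessel form Cox4i2, which is known for its part in oxygen sensing, and the testis form Cox6b2.

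The 6 libraries held 6355125 to 50436562 UMIs, and 935 to 4067 barcodes per library passed 500 UMIs, 300 genes and 20% mitochondrial UMIs. After likely doublets were removed, 15311 cells remained, with library medians of 799 to 8052 UMIs per cell. The deepest libraries were old replicates 3 and 4, and young replicates 1 and 2 and old replicate 2 lay between 799 and 841 UMIs per cell. Old replicate 2 thus matched the young libraries in depth, while old replicates 1, 3 and 4 were deeper than both. Clustering, run without the 115 genes, gave 8 classes with enough cells, named from markers: FBs, smooth muscle cells (SMCs), endothelial cells (ECs), C1q+ macrophages (MΦs), B cells, T cells, airway epithelial cells and mesothelial cells. Classes of under 10 cells in a library were left out, which removed B cells of old replicate 1 and T cells of young replicate 2. In old replicate 1, 109 of 133 C1q+ MΦs came from 1 cluster seen in that library alone. Young replicates 1 and 2 and old replicate 2 shared 130 to 212 barcodes pairwise, mostly airway cells, and other pairs shared at most 4. Of the members, 110 had UMIs in the kept cells. Ndufa13, Cox4i1, Cox8c, Ndufb4c and Ndufb11b were listed at 0 in every class. Ndufa13 and Cox4i1 code for subunits that nearly all cells need, so their 0 was not read as absence.

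SMCs gave the largest share of their messages to the nuclear-coded respiratory chain genes. The share, taken as a percentage of UMIs outside mitochondrial genes, was 3.25 and 2.78% in young replicates 1 and 2 and 3.02, 4.35, 1.73 and 1.70% in old replicates 1 to 4 for SMCs. SMCs ranked first in each of the 6 libraries, and exceeded the next class by 1.11-fold to 2.45-fold. Means over libraries ran from 2.80% ± 0.999 (SD, n = 6) in SMCs through 1.61% ± 0.317 (SD, n = 6) in mesothelial cells, 1.61% ± 0.398 (SD, n = 5) in B cells, 1.57% ± 0.418 (SD, n = 5) in T cells, 1.49% ± 0.207 (SD, n = 6) in airway cells and 1.40% ± 0.395 (SD, n = 6) in C1q+ MΦs to 1.24% ± 0.210 (SD, n = 6) in FBs and 1.22% ± 0.183 (SD, n = 6) in ECs. Among the 28 pairs of classes, 14 differed in one direction in every library they shared, and these included SMCs above all 7 other classes and both FBs and ECs below airway and mesothelial cells. Mesothelial, B, T, airway and macrophage levels overlapped, as did FBs and ECs. An exact sign-flip test over 6 libraries cannot go below p = 0.03125, a value that SMCs reached against each class present in all 6 libraries, and the smallest Benjamini-Hochberg value over 84 such tests was 0.202. The share was lower in the deep old replicates 3 and 4 than in the other libraries for SMCs. Median SMC depth there was 6589.5 and 8715 UMIs per cell against 644 to 3086 in the others. Only 103 of 956 and 179 of 1699 of their SMCs lay in the SMC cluster present in every library. The rest lay in clusters with at most 3 cells of any other library. Within the cluster present in every library, these replicates were at 2.15 and 2.54%, against 2.81 to 4.35% in the others. The parts of depth and of cluster in this were not tested.

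**Figure D1:**
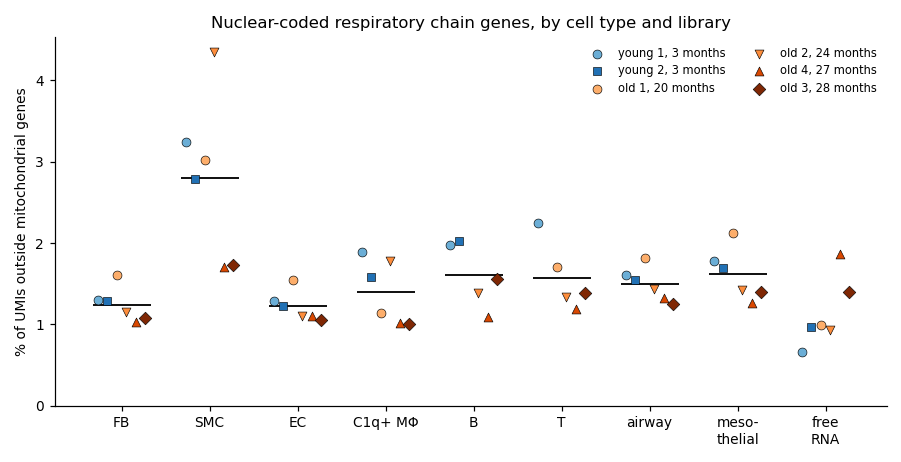
Nuclear-coded respiratory chain genes as a percentage of UMIs outside mitochondrial genes (vertical axis) for each cell class and for free RNA (horizontal axis), 1 point per library, with a bar at the mean of the libraries. The SMC points lie between 1.70% and 4.35%, each above the points of the same library in the other classes. Free RNA of old replicate 4, at 1.87%, lies above the SMC point of that library, and free RNA lies below the SMC point in the other libraries.

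Small SMC classes held barcodes that did not look like SMCs. No UMI of the 7 smooth muscle markers was found in 5 of 25 SMC barcodes of young replicate 1, 4 of 33 of young replicate 2, 10 of 149 of old replicate 1, 8 of 10 of old replicate 2, 11 of 956 of old replicate 3 and 3 of 1699 of old replicate 4. In addition, 2 SMC barcodes of young replicate 1 and 1 of old replicate 2 held at least 3 of the 4 cardiomyocyte genes Myh6, Myl7, Nppa and Tnni3. Summed over the SMC class, the 9 cardiomyocyte markers reached 6854 and 8769.9 CPM (UMIs per 1000000 UMIs) in these libraries against 741 to 1140 CPM in the other libraries. The old replicate 2 value therefore describes a class that goes against its label. When a smooth muscle marker UMI was required, old replicate 2 dropped out and the SMC share was 2.36%, 2.63%, 3.06%, 1.73% and 1.70% in young replicates 1 and 2 and old replicates 1, 3 and 4, still above every other class in 5 of 5 libraries. The exact sign-flip test then gave p = 0.0625 against each class present in these 5 libraries and 0.125 against B and T cells. Within the 1 SMC cluster present in every library, the SMC share was 3.45 and 2.81% in young replicates and 3.03, 4.35, 2.15 and 2.54% in old replicates 1 to 4. Both settings were chosen after seeing the data.

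By complex, of all nuclear-coded UMIs, complex I took 29.98 to 36.6% (range of class means), complex V 25.6 to 31.6%, complex IV 21.7 to 25.6%, complex III 10.9 to 13.9%, complex II 1.52 to 2.37%, complex I assembly factors 1.09 to 1.61% and cytochrome c 0.258 to 0.664%. As a share of UMIs outside mitochondrial genes, SMCs had the largest mean in each of these 7 groups over the 6 libraries. Without old replicate 2 this held for 6 groups, and complex II was at 0.0412% in SMCs and 0.0426% in mesothelial cells. With a smooth muscle marker UMI required, complex II was at 0.0396% in SMCs, and the other 6 groups were again highest in SMCs.

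Gene by gene, each class was set against the mean of the others over library sums, in quasi-likelihood fits of edgeR over 11858 genes with Benjamini-Hochberg adjusted p, among them 89 nuclear-coded and 10 mitochondrial-coded members. Levels below are CPM of the summed class, and fold changes are on the log2 scale, given ± SE. In SMCs, 45 of the 89 nuclear-coded members were called higher and 1 lower, where 20.4% and 18.6% of all genes were called. The median of the 89 was 0.56 against -0.084 for all genes. The calls covered 23 of 37 complex I subunits tested, 2 of 8 assembly factors, 1 of 4 complex II subunits, 6 of 9 complex III, 7 of 13 complex IV and 6 of 17 complex V subunits. Between 34 and 64 members were called higher under the alternatives in which SMCs could be tested, and 27 of the 45 were called under all of these. They do not include the setting of at least 1000 UMIs and 500 genes per cell, where SMCs could be compared with other classes in at most 3 libraries.

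Among SMC complex I subunits, Ndufa11, an accessory subunit of the membrane arm, rose most. It was measured at 445 and 219 CPM in young replicates 1 and 2 and 478, 711, 304 and 328 CPM in old replicates 1 to 4. The SMC value was the highest of all classes in each library (log2 fold change 1.43 ± 0.18 SE, adjusted p = 9.05e-10). Ndufb2, another membrane arm subunit, was at 134 and 306 CPM in young replicates 1 and 2 and 154, 237, 41.1 and 67.7 CPM in old replicates 1 to 4 in SMCs (log2 fold change 1.37 ± 0.22 SE, adjusted p = 1.05e-06). Young replicate 2 held the highest Ndufb2 value, and the deep old replicates 3 and 4 the lowest. Ndufc1 (1.04 ± 0.19, adjusted p = 9.30e-06), Ndufs6 (0.85 ± 0.19, adjusted p = 0.000285) and Ndufv1, which binds NADH (0.79 ± 0.22, adjusted p = 0.00298), rose as well. Ndufa4, counted with complex I by name and known to sit in complex IV, was at 1024 and 1224 CPM in young replicates 1 and 2 and 769, 1659, 491 and 475 CPM in old replicates 1 to 4 (log2 fold change 0.47 ± 0.18 SE, adjusted p = 0.0292).

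In complex II, Sdhc, which anchors the complex in the membrane, rose in SMCs with 44.5 and 43.7 CPM in young replicates 1 and 2 and 101, 119, 146 and 156 CPM in old replicates 1 to 4 (log2 fold change 0.90 ± 0.24 SE, adjusted p = 0.00208). All old SMC values of Sdhc lay above both young ones, each young value being 1 UMI. The catalytic subunits Sdha and Sdhb and the other anchor Sdhd did not pass the test in SMCs, at log2 fold changes of 0.18 ± 0.23 (adjusted p = 0.617), 0.56 ± 0.24 (adjusted p = 0.0602) and 0.12 ± 0.22 (adjusted p = 0.942). In complex III, Cyc1, the cytochrome c1 subunit, stood at 0.81 ± 0.24 (adjusted p = 0.00457), and the small subunits Uqcrb, Uqcr10 and Uqcr11 at 0.73 ± 0.20 (adjusted p = 0.00302), 0.65 ± 0.19 (adjusted p = 0.00395) and 0.69 ± 0.19 (adjusted p = 0.00254), all of them higher in SMCs. Cycs, the mobile electron carrier, was at 178 and 175 CPM in young replicates 1 and 2 and 96.4, 356, 43.4 and 58.3 CPM in old replicates 1 to 4 in SMCs and did not pass the test there (log2 fold change 0.50 ± 0.23 SE, adjusted p = 0.0819).

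In complex IV, the ubiquitous small subunits rose in SMCs: Cox6c (1.03 ± 0.19, adjusted p = 7.52e-06), Cox6a1 (0.80 ± 0.21, adjusted p = 0.00151), Cox7c (0.77 ± 0.19, adjusted p = 0.00095), Cox7a2 (0.68 ± 0.19, adjusted p = 0.00232) and Cox8a (0.59 ± 0.19, adjusted p = 0.0107). Cox6c2, whose sequence overlaps that of Cox6c in 39.4% of its windows, cannot be counted apart from it with certainty. Cox6b1 and Cox7a2l did not pass the test in SMCs, at 0.16 ± 0.21 (adjusted p = 0.596) and -0.14 ± 0.23 (adjusted p = 0.711). In complex V, the peripheral and membrane subunits Atp5j, Atp5k and Atp5md rose, at 0.73 ± 0.21 (adjusted p = 0.00337), 0.96 ± 0.18 (adjusted p = 1.63e-05) and 0.74 ± 0.19 (adjusted p = 0.00118). Of the 3 genes for the c ring, Atp5g1 and Atp5g3 were at 0.38 ± 0.21 (adjusted p = 0.154) and 0.47 ± 0.24 (adjusted p = 0.117) in SMCs and Atp5g2 at -0.34 ± 0.37 (adjusted p = 0.538), none past the test.

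**Figure D2:**
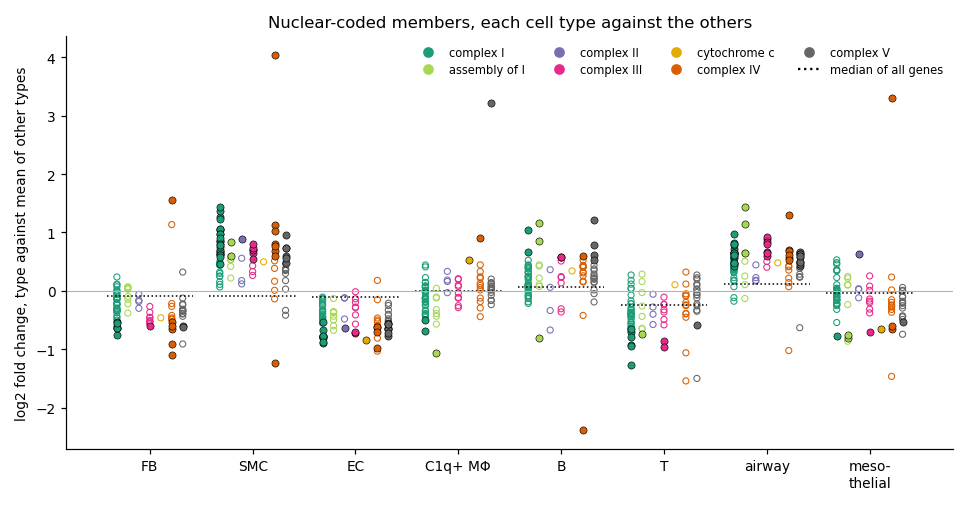
Log2 fold change of each nuclear-coded member in a cell class against the mean of the other classes (vertical axis), by class (horizontal axis) and coloured by complex. Filled points passed an adjusted p of 0.05, open points did not, and a dotted line marks the median of all genes. In SMCs 85 of 89 members lie above 0 and in ECs 88 of 89 lie below 0.

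Promoters of members are shown because so many members were higher in SMCs together. RefSeq sequences of GRCm38.p6 were found for 78 of 101 nuclear-coded symbols, and the 250 bases before each start were searched on both strands. The letters GCGCNTGCG, the core that NRF1 binds, were held by 24.4% of member promoters against 5.88% of all genes. CCGGAAG, the core for ETS factors such as GABPA, was held by 17.9% against 7.83%. AAGATGGCG, read by YY1, stood in 1.28% against 0.710%, TCAAGGTCA, read by estrogen-related receptors, in 1.28% against 0.422%, and TATAAA in 8.97% against 14.3%. A match of one motif may share bases with a match of another. Members called higher in SMCs held the NRF1 letters in 10 of 36 promoters, or 27.8%, near the 24.4% of all members. ETS letters stood in 16.7% of these promoters against 17.9% of all members, and TATAAA in 8.33% against 8.97%. YY1 letters stood in 2.78% against 1.28%, and those of estrogen-related receptors in 0% against 1.28%. A match is a description and says nothing of binding. The 120 bases before the start follow for Cycs, for Cox6a1 and Ndufa11, which rose in SMCs with NRF1 or ETS letters, for Ndufb2, which rose with none, and for the isoforms Cox6b2 and Cox8b, which hold none. Capitals mark NRF1 letters in Cycs and Ndufa11, NRF1 and then ETS letters in Cox6a1, on either strand.
Cycs, chr6:50566570-50566689, minus strand: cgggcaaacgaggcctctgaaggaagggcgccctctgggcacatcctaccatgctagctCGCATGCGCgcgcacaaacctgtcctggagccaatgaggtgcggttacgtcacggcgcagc
Cox6a1, chr5:115348959-115349078, minus strand: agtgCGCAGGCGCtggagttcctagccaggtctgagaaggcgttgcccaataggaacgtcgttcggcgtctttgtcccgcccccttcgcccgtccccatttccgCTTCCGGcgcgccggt
Ndufa11, chr17:56717642-56717761, plus strand: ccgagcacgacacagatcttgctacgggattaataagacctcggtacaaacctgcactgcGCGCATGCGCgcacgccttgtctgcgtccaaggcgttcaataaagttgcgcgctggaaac
Ndufb2, chr6:39592445-39592564, plus strand: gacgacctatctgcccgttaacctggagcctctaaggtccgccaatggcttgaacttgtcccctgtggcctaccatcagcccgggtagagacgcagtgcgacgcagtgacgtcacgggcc
Cox6b2, chr7:4753095-4753214, minus strand: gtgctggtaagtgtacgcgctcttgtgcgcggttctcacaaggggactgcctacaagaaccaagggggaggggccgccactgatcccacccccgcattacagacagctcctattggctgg
Cox8b, chr7:140900447-140900566, minus strand: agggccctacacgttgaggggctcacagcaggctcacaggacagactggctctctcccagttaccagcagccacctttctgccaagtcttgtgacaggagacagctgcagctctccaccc

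ECs lay at the other end. Of the 89 nuclear-coded members, 25 were called lower and 0 higher in ECs by edgeR, where 12.1% and 17.3% of all genes were called, and DESeq2 called 31 lower and 0 higher. An unadjusted p under 0.05 was reached by 49 members of both genomes. The EC median was -0.50 against -0.11 for all genes. Cox7b, a small complex IV subunit, fell most, at 87.5 and 201 CPM in young replicates 1 and 2 and 161, 115, 93.9 and 91.6 CPM in old replicates 1 to 4 (log2 fold change -0.99 ± 0.22 SE, adjusted p = 0.000255). Ndufb1 and Ndufa1, accessory subunits of complex I, fell too, at -0.89 ± 0.23 (adjusted p = 0.00203) and -0.88 ± 0.22 (adjusted p = 0.00113). Cycs stood at -0.84 ± 0.24 (adjusted p = 0.00587) and Sdhb, the iron-sulfur subunit of complex II, at -0.64 ± 0.25 (adjusted p = 0.0494). In ECs 59.0% of all genes called were higher, against 72.2% without TMM, and 22 members were lower and 0 higher in that setting. Cox7b, Ndufa1 and Ndufa3 kept their EC call in every alternative.

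In FBs, 14 nuclear-coded members were called lower and 1 higher, where 13.1% and 19.1% of all genes were called. Their median was -0.33 against -0.097 for all genes. Cox5a, a nuclear-coded subunit of complex IV, was at 87.5 and 95.6 CPM in young replicates 1 and 2 and 77.7, 54.6, 109.6 and 99.4 CPM in old replicates 1 to 4 (log2 fold change -1.11 ± 0.25 SE, adjusted p = 0.00038), and it alone was called lower in FBs under all alternatives. Cox6c2 was at -0.90 ± 0.34 (adjusted p = 0.0336) and mt-Atp6 at -0.88 ± 0.34 (adjusted p = 0.0397). The number of members lower in FBs ran from 1 with at least 1000 UMIs per cell to 22 with mitochondrial genes left out of library sizes.

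Airway cells had 42 nuclear-coded members called higher and 0 lower by edgeR, where 28.2% and 12.1% of all genes were called, and DESeq2 called 44 and 0. An unadjusted p under 0.05 was reached by 60 members of both genomes. Without TMM scaling the counts were 5 higher and 4 lower, and 70.1% of all genes called were higher, against 38.8% without TMM. The median of all genes moved from 0.12 to -0.32, and the members' median stayed above it by 0.36 and 0.30. The 8 airway markers summed to 147200.0 to 324624 CPM in this class, and their part in the scaling was not tested. Ndufaf2, an assembly factor of complex I, was at 94.98 and 74.3 CPM in young replicates 1 and 2 and 87.6, 75.5, 81.9 and 50.7 CPM in old replicates 1 to 4 (log2 fold change 1.43 ± 0.19 SE, adjusted p = 5.38e-09). Ndufaf3, also an assembly factor, was at 1.15 ± 0.26 (adjusted p = 0.000167). Ndufa12 and Uqcr10, at 0.98 ± 0.21 (adjusted p = 9.76e-05) and 0.93 ± 0.17 (adjusted p = 9.60e-06), kept their call under all alternatives, as did Ndufaf2 and Ndufaf3.

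The 4 other classes moved less. In C1q+ MΦs, 3 members were called higher and 3 lower, where 23.7% and 15.2% of all genes were called, and the counts were 2 and 14 without TMM. Cox5a was at 435 and 195 CPM in young replicates 1 and 2 and 113, 195, 324 and 234 CPM in old replicates 1 to 4 in C1q+ MΦs, which was higher than the mean of the other classes (log2 fold change 0.91 ± 0.20 SE, adjusted p = 0.000178). In old replicate 1, SMCs, T, airway and mesothelial cells exceeded the C1q+ MΦ value. Cycs stood at 0.53 ± 0.21 (adjusted p = 0.0367) in C1q+ MΦs. The third was a second Atp5o gene model at 3.21 ± 0.27 (adjusted p = 7.70e-15), which overlaps Donson and the main Atp5o, so its counts are uncertain. Ndufaf3, Ndufa5 and Ndufa11 were lower there, at -1.07 ± 0.32 (adjusted p = 0.00512), -0.70 ± 0.21 (adjusted p = 0.00608) and -0.49 ± 0.19 (adjusted p = 0.036).

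In B cells 11 nuclear-coded members were called higher and 2 lower, where 23.5% and 19.5% of all genes were called. Atp5g2, one of the c ring genes, was at 58.1 and 69.1 CPM in young replicates 1 and 2 and 38.4, 15.7 and 6.81 CPM in old replicates 2, 3 and 4 in B cells, where young values exceeded all old values (log2 fold change 1.21 ± 0.33 SE, adjusted p = 0.00188). In B cells of young replicate 2 and old replicate 4, 3 counts would be 207 and 20.4 CPM, so these 2 values rest on fewer than 3 UMIs each. Ndufaf5, an assembly factor, and Ndufs8, an iron-sulfur subunit of complex I, stood at 1.16 ± 0.35 (adjusted p = 0.00624) and 1.03 ± 0.23 (adjusted p = 0.00017), and Cox6b2 and Ndufaf7 were lower at -2.38 ± 0.65 (adjusted p = 0.00208) and -0.82 ± 0.32 (adjusted p = 0.032). In B cells 54.6% of all genes called were higher, against 44.6% without TMM. In T cells 10 members were lower and 0 higher by edgeR, where 16.1% and 12.5% of all genes were called. DESeq2 called 11 T cell members lower and 0 higher, and 14 of both genomes had an unadjusted p under 0.05. Ndufv1, Uqcrb and Ndufb9 fell most in T cells, at -1.27 ± 0.36 (adjusted p = 0.0046), -0.96 ± 0.26 (adjusted p = 0.00381) and -0.95 ± 0.27 (adjusted p = 0.00527). In T cells 43.8% of all genes called were higher, against 59.8% without TMM, and 3 members were then higher and 5 lower. In mesothelial cells 2 members were higher and 8 lower, where 20.3% and 11.7% of all genes were called, but 10 were higher and 1 lower without TMM, when 76.2% rather than 63.4% of all genes called were higher. Sdhc was at 0.62 ± 0.24 (adjusted p = 0.0405) in mesothelial cells, and Ndufaf4, Ndufs8 and mt-Nd3 were lower, at -0.80 ± 0.31 (adjusted p = 0.0378), -0.77 ± 0.25 (adjusted p = 0.0146) and -0.85 ± 0.27 (adjusted p = 0.0113). TMM against unscaled library sizes moved the median of all genes by over 0.1 in ECs, C1q+ MΦs, B, T, airway and mesothelial cells.

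Tissue isoforms showed the sharpest class patterns. Cox4i2, the lung and vessel isoform of the subunit that Cox4i1 supplies elsewhere, was at 44.5 and 87.4 CPM in young replicates 1 and 2 and 75.0, 0, 33.96 and 31.8 CPM in old replicates 1 to 4 in SMCs. Its UMI counts there were 1 and 2 in young replicates 1 and 2 and 35, 0, 208 and 465 in old replicates 1 to 4, so the young values and the 0 rest on few SMC barcodes. In the 0 of old replicate 2, 356 CPM would have been compatible with a count of 0, taking 3 counts as the limit. SMCs exceeded the other classes (log2 fold change 4.04 ± 0.39 SE, adjusted p = 5.66e-12), and SMCs held 711 of 1099 Cox4i2 UMIs. A further 253 lay in a cluster of 653 cells, 646 of them from old replicate 4, that was left without a name because Tnnt2 led its genes, at 34.9 CPM (30.7 to 39.4) (95% exact Poisson interval, counting error only). In old replicate 1, Cox4i2 also reached 38.8, 15.7 and 44.6 CPM in FBs, ECs and C1q+ MΦs, from 15, 26 and 15 UMIs.

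Cox6b2, known as the testis form of a subunit that Cox6b1 supplies elsewhere, marked mesothelial cells. Its levels were 47.2 and 0 CPM in young replicates 1 and 2 and 109, 45.8, 76.0 and 93.3 CPM in old replicates 1 to 4 (log2 fold change 3.31 ± 0.30 SE, adjusted p = 7.72e-14). Young replicate 2 held 12 mesothelial cells and was the one library at 0. Cox6b2 was also higher in FBs, at 0 and 0 CPM in young replicates 1 and 2 and 12.9, 14.9, 23.7 and 34.1 CPM in old replicates 1 to 4 (log2 fold change 1.55 ± 0.33 SE, adjusted p = 0.000161), where it had no UMI in either young library, and in airway cells (1.30 ± 0.39, adjusted p = 0.00496). Taking 3 counts as the limit, a count of 0 allows 37.5 and 143 CPM in FBs of young replicates 1 and 2. All old FB values of Cox6b2 lay below both limits, so absence in young FBs cannot be read from these counts. Cox6b2 was lower in SMCs, with at most 4.31 CPM in any library (log2 fold change -1.24 ± 0.46 SE, adjusted p = 0.0283). In SMCs of young replicates 1 and 2 and old replicate 2 its count was 0. By the same limit, that 0 allows 134, 131 and 356 CPM.

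**Figure D3:**
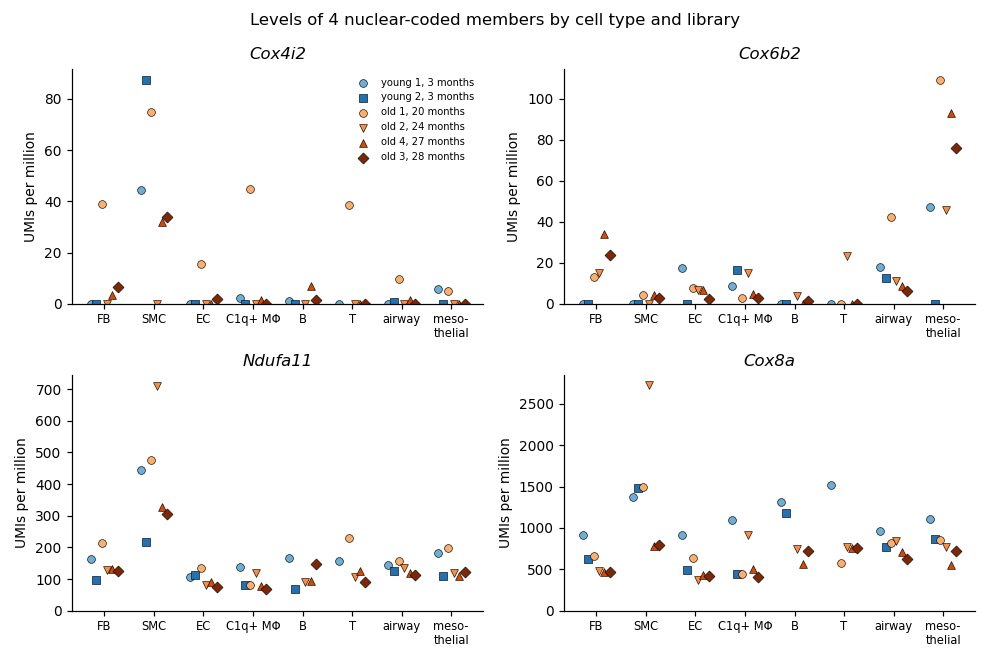
CPM (vertical axes, starting at 0) of Cox4i2, Cox6b2, Ndufa11 and Cox8a in each cell class (horizontal axes), 1 point per library. Cox4i2 points stand out in SMCs, from 0 to 87.4 CPM, and Cox6b2 points in mesothelial cells, from 0 to 109 CPM.

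The heart and skeletal muscle isoforms were rare. Cox8b gave 327 UMIs in all, and 152 of them lay in a cluster of 24 adipocyte-like cells, 20 of which held a Cox8b UMI. Cox8b stood at 1237 CPM (1048 to 1449.5) there, with 35 and 20 UMIs in young replicates 1 and 2 and 0, 4, 33 and 60 in old replicates 1 to 4, of which old replicate 1 had no such cell. These cells also held 97.6 CPM (50.4 to 171) of Cox7a1 and 3043 CPM (2742 to 3367) of the ubiquitous Cox8a. The interval limits cover counting error only. Cox6a2 gave 118 UMIs, 48 of them in 21 B cells. Its 18 UMIs in the SMC class all lay in the 3 barcodes with cardiomyocyte genes, which also held 17 of 31 Cox8b and 11 of 74 Cox7a1 UMIs of that class. In barcodes of 10 to 100 UMIs, taken as free RNA, Cox8b was at 189.5 and 188 CPM in young replicates and 27.9 to 86.3 CPM in old ones, and the part of free RNA in the low counts of other classes was not tested. In ECs Cox8b had 52 UMIs, 46 of them in old replicate 3 and 0 in old replicate 1. Ndufa4l2, the paralog of Ndufa4 known to be induced by hypoxia, had 88 UMIs, of which 53 lay in FBs at 5.97 CPM (4.47 to 7.81). Among c ring genes, Atp5g3 reached 829.8 CPM (677 to 1007) and Atp5g2 65.1 CPM (28.1 to 128) in adipocyte-like cells.

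Summed by class, the mitochondrial-coded genes followed the library more than the cell class. Their share of all UMIs had a median over classes of 0.455% and 0.977% in young replicates 1 and 2, and 0.661%, 1.41%, 2.24% and 1.21% in old replicates 1 to 4. Old replicate 3 was highest in 8 of 8 classes, and young replicate 1 lowest in 7 of 8. By contrast, the means of the 8 classes lay between 0.958% in FBs and 1.46% in B cells, and only 3 of 28 pairs of classes differed in one direction in every library. The B cell mean leaves out old replicate 1 and the T cell mean young replicate 2, so the class means are not over the same libraries. Clusters of 1 class could also differ within a library. In old replicate 3 the share was 7.39 and 2.57% in 2 EC clusters and 5.86 and 2.20% in 2 SMC clusters. It was 6.34 and 2.62% in 2 macrophage clusters there. The 2 FB clusters lay closer, at 0.643 and 0.486% in old replicate 1 and 1.66 and 1.27% in old replicate 2. SMCs, which led in nuclear-coded genes, had 0.583 and 1.86% in young replicates 1 and 2 and 0.858, 1.16, 2.29 and 1.27% in old replicates 1 to 4 for the mitochondrial-coded ones. Their mean ratio of mitochondrial to nuclear share was 0.595 against 0.720 in mesothelial cells and 1.21 in ECs. SMCs did not stay lowest without the doubted barcodes: the ratio was 0.680 with a smooth muscle marker UMI required, against 0.656 in mesothelial cells of the same 5 libraries, and 0.861 in the SMC cluster present in every library. The ratio differed in one direction in every library for 5 of 28 pairs.

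Free RNA was rich in these transcripts. The mitochondrial-coded share of free RNA was 2.06% and 5.89% in young replicates 1 and 2 and 15.04%, 15.9%, 22.5% and 30.3% in old replicates 1 to 4, or 4.19 to 25.4 times that of kept cells. Every old library exceeded both young ones in free RNA, and its part in the values per class was not tested. In old replicate 3, 377 of 4444 barcodes were removed for over 20% mitochondrial UMIs, against at most 9 in any other library. mt-Cytb of complex III was the most abundant at class means of 3444 to 5211 CPM, followed by the complex I genes mt-Nd4 (1342 to 2281), mt-Nd2 (1449 to 2154) and mt-Nd1 (1216 to 1915) and by mt-Co1 of complex IV (1009 to 1499.7). mt-Nd5, mt-Nd6, mt-Nd3 and mt-Atp8 followed, with means of 85.5 to 959 CPM. Only 452 UMIs of mt-Co2, 441 of mt-Co3, 907 of mt-Atp6 and 161 of mt-Nd4l were counted. For these 4 genes, mt-Co1 and mt-Nd3, 94.9 to 99.8% of sequence windows also occur in a nuclear copy, so reads may be split between them and their levels are uncertain.

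Between classes, 6 of 10 mitochondrial-coded members tested were higher in airway cells, where 28.2% of all genes were, led by mt-Nd4 (1.10 ± 0.21, adjusted p = 1.09e-05), mt-Nd5 (1.03 ± 0.19, adjusted p = 1.22e-05) and mt-Cytb (0.99 ± 0.21, adjusted p = 0.000119). The airway calls rest on TMM scaling, without which the airway median of all genes moved from 0.12 to -0.32, and calls without it are not given here. As a share of UMIs, the mitochondrial-coded genes had their highest mean in B cells rather than airway cells. The B cell mean leaves out old replicate 1, which was at 0.496 to 0.858% in its classes, so this order is not over the same libraries. B cells had 2 members called higher, mt-Atp8 and mt-Nd5 (23.5% of all genes), and SMCs 1, mt-Nd3 (0.74 ± 0.26, adjusted p = 0.0169), beside 20.4% of all genes. FBs had 2 lower, mt-Nd5 and mt-Atp6 (13.1% of all genes), and mesothelial cells 2 lower, mt-Atp8 and mt-Nd3 (11.7%). ECs, C1q+ MΦs and T cells had 0 called by edgeR and by DESeq2, and 2, 0 and 0 members with an unadjusted p under 0.05.

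**Figure D4:**
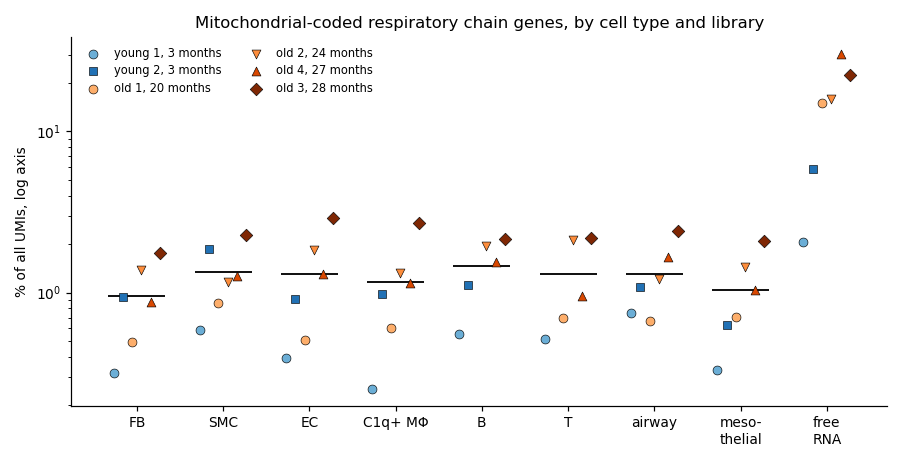
Mitochondrial-coded respiratory chain genes as a percentage of all UMIs (vertical log axis) for each cell class and for free RNA (horizontal axis), 1 point per library, with a bar at the mean of the libraries. Old replicate 3 is highest in all 8 classes, and free RNA runs from 2.06% to 30.3%.

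With age, the mitochondrial-coded share had a higher mean in old than in young libraries in 7 of 7 classes compared, but the libraries overlapped in 5 of them. In mesothelial cells the share was 0.332 and 0.632% in young replicates 1 and 2 and 0.708, 1.45, 2.08 and 1.04% in old replicates 1 to 4, and all old values lay above both young values (exact permutation test, two-sided, p = 0.133). In B cells it was 0.555 and 1.11% in young replicates 1 and 2 and 1.93, 2.15 and 1.55% in old replicates 2, 3 and 4, again without overlap (exact permutation p = 0.1, the smallest that 2 against 3 libraries allow). The smallest p that 2 against 4 libraries allow is 0.0667, so no share could pass 0.05, and the adjusted value over 70 such tests was 0.778 for both. In FBs the mitochondrial-coded share was 0.316 and 0.936% in young replicates 1 and 2 and 0.496, 1.37, 1.75 and 0.877% in old replicates 1 to 4, where young replicate 2 lay above old replicates 1 and 4.

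The nuclear-coded share of FBs was 1.30 and 1.29% in young replicates 1 and 2 and 1.61, 1.16, 1.07 and 1.03% in old replicates 1 to 4. Young and old FBs overlapped, at 1.29% ± 0.0102 (SD, n = 2) in the young and 1.22% ± 0.266 (SD, n = 4) in the old mice (exact permutation p = 0.867, adjusted 0.948). Of FBs, 814 of 815 in old replicate 3 and 491 of 493 in old replicate 4 lay in 1 cluster. It held 23 of 91 and 12 of 29 in young replicates 1 and 2. In this cluster the share was 1.49% in both young replicates and 1.88, 1.17, 1.07 and 1.03% in old replicates 1 to 4. In the other FB cluster, young replicates 1 and 2 were at 1.25 and 1.16% and old replicates 1 and 2 at 1.59 and 1.15%. SMCs overlapped as well, at 3.01% ± 0.327 (SD, n = 2) in the young and 2.70% ± 1.26 (SD, n = 4) in the old mice. The old mean includes 4.35% of old replicate 2, whose SMC class went against its label. With a smooth muscle marker UMI required, which drops it, SMCs were at 2.49% ± 0.196 (SD, n = 2) in the young. The old were then at 2.16% ± 0.774 (SD, n = 3), again with overlap. In ECs summed over all clusters, old replicate 1 stood above both young libraries and the other 3 old libraries below them. Of ECs, 541 of 800 in old replicate 3 and 227 of 292 in old replicate 4 lay in 1 cluster. It held 0 and 1 cells of young replicates 1 and 2. Another EC cluster held 81 of 83 and 60 of 63 ECs of young replicates 1 and 2. In it, old replicates 3 and 4 lay above the EC shares of both young replicates, and old replicate 2 below them. C1q+ MΦs were at 1.88 and 1.58% in young replicates 1 and 2 and 1.14, 1.78, 1.00 and 1.02% in old replicates 1 to 4, with old replicate 2 between the young libraries and the other 3 below both. The macrophages of old replicates 3 and 4 lay mostly in a cluster with 6 and 0 cells of young replicates 1 and 2, at 0.989 and 1.02%. Another cluster of this class, led by Prg4 and Saa3, held 45 of 454 and 36 of 66 macrophages of young replicates 1 and 2. It held 93 of 395 in old replicate 2 and 0 cells of the other old libraries. Within the 1 macrophage cluster that every library shared, the share was 1.92 and 1.62% in young replicates 1 and 2 and 1.59, 1.71, 1.53 and 1.42% in old replicates 1 to 4, so that young replicate 2 lay below old replicate 2. In B cells the young share exceeded the old in every library, at 1.98 and 2.03% in young replicates 1 and 2 and 1.38, 1.55 and 1.09% in old replicates 2, 3 and 4 (exact permutation p = 0.1, adjusted 0.778). The B cells of the libraries came from different clusters, and the order was not the same within each of them. In 1 shared cluster, young replicate 2 and old replicate 2 were both at 1.30%, and young replicate 1 at 1.69%. In another, young replicate 1 was at 1.81%, old replicate 2 at 1.59% and old replicate 3, with 10 cells, at 2.54%. Old replicate 4 had its B cells in a cluster without young cells.

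Tested gene by gene between ages with edgeR, 0 of 89 members were called in FBs, where 0.0442% of all genes were, 0 of 95 in SMCs (0.0984%), 0 of 86 in ECs (0%), 0 of 87 in C1q+ MΦs (0%), 0 of 75 in B cells (0%) and 0 of 93 in airway cells (0%). At an unadjusted p under 0.05, these were 3, 2, 5, 4, 11 and 5 members in the same order, and DESeq2 called 0 in each of these 6 classes. T cells had too few young cells to be tested. In mesothelial cells 1 of 93 members was called, where 0.446% of all genes were, and DESeq2 called 1. It was mt-Nd4, a core subunit of complex I, at 302 and 327 CPM in young replicates 1 and 2 and 974, 1719, 3394 and 1997 CPM in old replicates 1 to 4. Its old values lay above both young ones, of which that of young replicate 2 was 3 UMIs from 12 cells (log2 fold change 2.89 ± 0.76 SE, adjusted p = 0.035, edgeR). Of those 12 cells, 7 had barcodes shared with other libraries. The call was lost with no gene filter (edgeR adjusted p = 0.0547) and without old replicate 1, 3 or 4 (edgeR adjusted p = 0.0783, 0.570 and 0.115). It was also lost without young replicate 1 or 2, at log2 fold changes of 3.69 and 2.57, where 1 young library was left. With a term for the libraries that share barcodes it was lost as well, at 2.81. That fit sets old replicate 2 alone against the young libraries. mt-Nd2 and mt-Nd3 came next in mesothelial cells, at 2.62 ± 0.76 and 2.72 ± 0.78 on the log2 scale (edgeR adjusted p = 0.0787 and 0.0815).

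The members of smallest p in the other classes did not pass the adjustment. Their values are sums over all clusters of a class, and libraries differed in these clusters. In FBs, Atp5l, a complex V subunit, was at 125 and 382 CPM in young replicates 1 and 2 and 88.0, 74.5, 25.6 and 34.4 CPM in old replicates 1 to 4, and both young values lay above all old values (log2 fold change -1.95 ± 0.71, edgeR adjusted p = 0.713). Ndufs4, a complex I subunit needed for its stability, was at 37.5 and 0 CPM in young replicates 1 and 2 and 77.7, 79.4, 144 and 95.6 CPM in old replicates 1 to 4 in FBs, with all old values above both young ones. In ECs Ndufs4 was at 0 and 22.3 CPM in young replicates 1 and 2 and 57.8, 81.3, 108 and 96.3 CPM in old replicates 1 to 4, ordered likewise. The young sums held 3 Ndufs4 UMIs in FBs and 1 in ECs, so no fold is given (edgeR adjusted p = 0.751 and 0.845). In FBs mt-Nd1 followed (1.40 ± 0.56), and in ECs mt-Nd4 (1.82 ± 0.72) and Ndufb5, which had 1 UMI in each young sum. In SMCs mt-Nd6 was at 44.5 and 437 CPM in young replicates 1 and 2 and 77.1, 0, 75.3 and 34.6 CPM in old replicates 1 to 4 (-1.60 ± 0.78), where young replicate 2 alone was high. Sdhc and Ndufaf2 also had small p in SMCs, but held 2 and 0 UMIs in the young sums, so no fold is given (edgeR adjusted p = 0.735 and 0.677).

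In C1q+ MΦs the smallest p belonged to Ndufs3, a core subunit of complex I, at 159 and 48.8 CPM in young replicates 1 and 2 and 23.8, 17.0, 28.3 and 36.0 CPM in old replicates 1 to 4, with both young values above all old ones (log2 fold change -2.20 ± 0.47, edgeR adjusted p = 0.797). The Ndufs3 value of young replicate 2 was 3 UMIs. Cox6a1 of complex IV, at 380.5 and 439.6 CPM in young replicates 1 and 2 and 146, 204, 137 and 148 CPM in old replicates 1 to 4, was ordered likewise (-1.45 ± 0.43), and Atp5g3 was at -1.48 ± 0.52. In B cells mt-Nd2, mt-Nd4 and mt-Cytb led, at 2.21 ± 0.53, 2.09 ± 0.52 and 1.34 ± 0.46 (edgeR adjusted p = 0.492, 0.493 and 0.657). In airway cells Ndufs5, Atp5g2 and Ndufb8 led, at -1.31 ± 0.43, -2.02 ± 0.67 and -1.29 ± 0.46 (edgeR adjusted p = 0.772 for all).

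As a group, nuclear-coded members lay below the median of all tested genes in each class, and mitochondrial-coded ones above it, also without TMM and with DESeq2, but not when some single libraries were left out or with a covariate for the libraries that share barcodes. The nuclear-coded median, set against that of all genes, was 0.016 against 0.20 in FBs, 0.12 against 0.49 in SMCs, 0.025 against 0.13 in ECs, -0.46 against 0.072 in C1q+ MΦs, -0.54 against 0.087 in B cells, -0.16 against 0.018 in airway cells and -0.05 against 0.15 in mesothelial cells. In C1q+ MΦs 14 of 78 nuclear-coded members had a positive fold change, against 54.3% of all genes, and in B cells 12 of 66 against 55.2%. In FBs it was 41 of 80 against 60.1%. In FBs, SMCs and ECs the difference from all genes changed sign when old replicate 3 or old replicate 4 was left out, to at most 0.098 in FBs, 0.024 in SMCs and 0.061 in ECs. With the covariate it changed sign in SMCs, to 1.03, and in C1q+ MΦs, to 0.0901, where 44 of 78 members then had a positive fold change. The age term with the covariate rests on old replicate 2 alone against the young libraries. The SMC class of old replicate 2 went against its label, as described above. The mitochondrial-coded median fell below that of all genes without young replicate 1 in FBs (0.65 against 0.69), SMCs (-0.19 against 0.62), C1q+ MΦs (0.26 against 0.29) and mesothelial cells (2.46 against 5.83), and in SMCs also without old replicate 3 (-0.16 against 0.17) and with no gene filter (1.15 against 2.16). Fold changes of mitochondrial-coded members were positive for 8 of 9 in FBs, 6 of 9 in SMCs, 7 of 9 in ECs, 9 of 9 in C1q+ MΦs and in mesothelial cells, 8 of 9 in B cells and 8 of 10 in airway cells, and the free RNA described above differed with age in the same direction. Without TMM, the median of all genes in SMCs was 0.11 in place of 0.49, and in airway cells 0.19 in place of 0.018.

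The age difference itself was compared between classes with an interaction term. Against FBs, 0 members were called in SMCs (0.0483% of all genes), ECs (0.0132%) or C1q+ MΦs (0.0125%) by edgeR, and 1, 1 and 2 members had an unadjusted p under 0.05. DESeq2 was not run on the interaction.

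**Figure D5:**
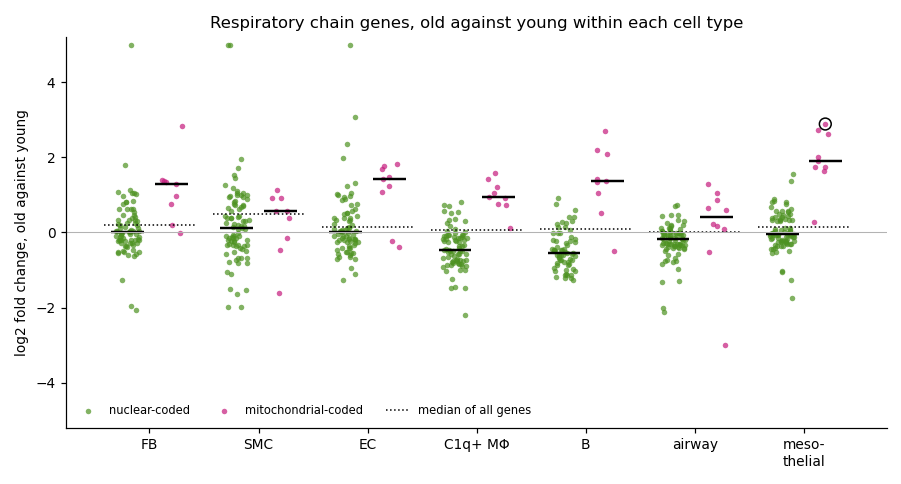
Log2 fold change of members between old and young libraries (vertical axis) within each cell class (horizontal axis), nuclear-coded in green and mitochondrial-coded in pink. Bars mark medians of the members, dotted lines the median of all genes, and a ring the 1 member past an adjusted p of 0.05, mt-Nd4 in mesothelial cells. The 4 members beyond 5 are drawn at 5.

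Genes around the chain were counted from 4 lists of known function. Of all genes, 28.2% were called higher and 12.1% lower in airway cells, 20.4% and 18.6% in SMCs, and 19.1% and 13.1% in FBs. In the same order these were 17.3% and 12.1% in ECs, 23.7% and 15.2% in C1q+ MΦs, and 23.5% and 19.5% in B cells. In T cells they were 12.5% and 16.1%, and in mesothelial cells 20.3% and 11.7%. Of 16 enzymes of the tricarboxylic acid cycle, which feeds the chain with electrons, 9 were higher and 0 lower in SMCs and all 16 had a positive fold change (median 0.62 against -0.084 for all genes). Idh3a, a subunit of isocitrate dehydrogenase, stood at 0.90 ± 0.25, adjusted p = 0.00249, and Cs, citrate synthase, at 0.83 ± 0.23, adjusted p = 0.0026. Airway cells had 5 higher, near the 28.2% of all genes, and 0 lower. FBs had 0 and 2, ECs 0 and 2, C1q+ MΦs 1 and 1, B cells 1 and 1 and mesothelial cells 3 and 1. T cells had 0 and 0, with 0 T cell genes at an unadjusted p under 0.05. Of 11 genes for ATP export and uncoupling, 8 were higher and 0 lower in airway cells, 4 and 1 in SMCs, 1 and 5 in FBs, 0 and 5 in ECs, 4 and 2 in C1q+ MΦs, 4 and 2 in B cells, 1 and 4 in T cells and 5 and 3 in mesothelial cells. Slc25a4, the ADP and ATP carrier of muscle, was higher in SMCs (1.92 ± 0.18, adjusted p = 8.03e-14), where Ucp2, an uncoupling protein homolog, was lower (-5.35 ± 0.52, adjusted p = 1.22e-12). Ckmt1, the mitochondrial creatine kinase, was higher in airway cells (7.79 ± 0.35, adjusted p = 8.78e-23).

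Of 29 other assembly factors tested, 11 were higher and 1 lower in airway cells, where 28.2% and 12.1% of all genes were called. In ECs 0 were higher and 7 lower, where 17.3% and 12.1% of all genes were. SMCs had 5 and 0, and 5 of 29 was below the 20.4% of all genes called higher there. Counts were 1 and 3 in FBs (19.1% and 13.1% of all genes), 1 and 0 in C1q+ MΦs (23.7% and 15.2%) and 3 and 0 in B cells (23.5% and 19.5%). They were 2 and 1 in T cells (12.5% and 16.1%) and 0 and 2 in mesothelial cells (20.3% and 11.7%). Higd1a, a factor of complex III and IV assembly known to respond to hypoxia, was higher in SMCs (1.71 ± 0.19, adjusted p = 7.75e-11). Of 13 regulators of mitochondrial gene expression, 4 were higher and 0 lower in B cells (23.5% and 19.5% of all genes). Among them was Tfam, which packages mitochondrial DNA (1.38 ± 0.27, adjusted p = 3.21e-05). FBs had 0 and 3 (19.1% and 13.1% of all genes) and airway cells 1 and 0 (28.2% and 12.1%). Mesothelial cells had 0 and 0 (20.3% and 11.7%), and 1 regulator there had an unadjusted p under 0.05. SMCs, ECs, C1q+ MΦs and T cells had 1 in each direction. Ppargc1a, a coactivator of mitochondrial biogenesis, was the regulator higher in SMCs (1.08 ± 0.41, adjusted p = 0.0298) and in airway cells (4.87 ± 0.30, adjusted p = 4.61e-21). Between ages, 0 genes of the 4 lists were called by edgeR in the 7 classes, and at most 2 of any list in any class had an unadjusted p under 0.05.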

How the data were processed

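Single cells of 6 proximal pulmonary arteries, 1 mouse each, were profiled with 10x 3′ v3.1 chemistry. The values are raw UMI counts per gene and barcode that the authors deposited unfiltered, made per the labels with cutadapt and STARsolo on GRCm38.p6. Barcodes with at least 500 UMIs, 300 genes and at most 20% mitochondrial UMIs were kept. Likely doublets (9 to 115 per library) were removed with Scrublet in scanpy 1.11.5. Cells were clustered (2000 variable genes, 40 components, 15 neighbours, resolution 1) without the respiratory chain genes, and the 30 clusters were named from markers where these allowed it. Counts were summed per library and class with at least 10 cells.

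Genes found in over 5% of cells in 3 libraries were tested with edgeR 4.0.16 (TMM, robust quasi-likelihood) and DESeq2 1.42.0 in R 4.3.3, with Benjamini-Hochberg adjustment over all genes tested and a threshold of 0.05. Class contrasts had library as a block. Shares were compared with exact permutation and sign-flip tests (scipy 1.17.1). CPM are UMIs per 1000000 UMIs of a library's class. Each library is a separate mouse, and with 2 young and 4 old libraries the precision is limited. Intervals, and the limit of 3 counts that a count of 0 allows, cover counting error only.

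The members and lists were chosen with earlier results of these data known. The named genes were all mitochondrial-coded members, isoform pairs, Cycs and complex II, the 3 largest rises and falls among members called per class, and members called or with the 3 smallest p per age contrast. Further members that kept their call under all alternatives were named after their values were seen. Alternatives covered scaling, tool, gene and cell filters, doublets, shared barcodes, thinning to 500 UMIs and leaving out each library. Those on SMC barcodes and on mitochondrial genes with nuclear copies were chosen after seeing the data. Scripts were tested on simulated data.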

Additional observations from a re-analysis of the deposited data

Results flagged for a closer look

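In groups of 4 libraries, a library was singled out when its gap to the nearest other library, divided by the range of the group, exceeded Dixon's 95% critical value for 4 samples. Of 34 groups tested 2 met this, and chance alone singles out about 1 in 20. The nuclear-coded share of old ECs was 1.55% in old replicate 1, against 1.06 to 1.10% in the other 3 old libraries. In the EC cluster with at least 10 cells of every library, old replicates 2, 3 and 4 were at 1.10, 1.38 and 1.40%. Young replicates 1 and 2, with 81 of 83 and 60 of 63 ECs in this cluster, had EC shares of 1.29 and 1.23%. In old mesothelial cells mt-Nd3, a complex I subunit, was at 430.0 CPM in old replicate 3, against 24.9 to 91.7 CPM in the others. Old replicate 3 was also the library with the highest mitochondrial-coded share in every class.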

How the results depend on the processing

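Among values that answer a comparison, 412 were counted as unchanged under the alternatives, 64 as moved and 7 as changed in direction. For age differences in shares, unchanged means that the direction was kept, whatever the size. The 412 therefore include age differences that changed in size, as in the SMC ranges below. Among values of named genes and medians of members, 918 kept direction and side of the threshold, 73 lost and 7 gained their call and 9 changed direction, of which 8 were medians and 1 a gene. The cause of a change was not tested, except that fewer libraries or genes entered some fits. No paired analysis of age was possible because each library was a separate mouse.

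With age, the SMC mitochondrial-coded share (0.176 percentage points higher in old mice) was -0.0589 in the 3 libraries that share barcodes alone and -0.461 to 0.813 when 1 library was left out, and it changed direction without young replicate 1 or old replicate 3. The SMC nuclear-coded share difference of -0.316 became 1.33 in those 3 libraries and ran from -0.865 to 0.0163, changing direction without old replicate 3 or 4, and that of C1q+ MΦs went from -0.499 to 0.0422. In those 3 libraries old replicate 2 was the only old library, and its SMC class went against its label. The covariate below likewise sets old replicate 2 alone against the young libraries. Called members went from 0 to 1 in SMCs with filterByExpr and to 2 with no gene filter, from 0 to 1 in C1q+ MΦs and to 4 in airway cells with no gene filter. In B cells they went from 0 to 2 without TMM and to 1 with filterByExpr, and ran from 0 to 4 over libraries left out, with 4 without old replicate 2. In mesothelial cells the 1 called member became 0 with a covariate for the libraries that share barcodes and 2 at up to 50% mitochondrial UMIs, and ran from 0 to 2, with 0 without either young library or old replicate 1, 3 or 4. The nuclear-coded median minus that of all genes ran over libraries left out from -0.409 to 0.0983 in FBs, -0.619 to 0.0242 in SMCs and -0.228 to 0.0608 in ECs, and was 1.03 in SMCs and 0.0901 in C1q+ MΦs with the covariate. Without old replicate 4 or 3 it was 0.0983 or 0.0605 in FBs, 0.0045 or 0.0242 in SMCs and 0.0366 or 0.0608 in ECs. mt-Nd6 in SMCs ran from -2.54 to 0.83, positive without young replicate 2.

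Between classes, pairs with a one-way mitochondrial-coded share went from 3 to 7 with at least 1000 UMIs, 8 with members used in clustering, 5 with old libraries alone and 6 with a smooth muscle marker UMI required, and ran from 3 to 7 over libraries left out. Pairs with a one-way ratio went from 5 to 9, 8, 2 (marker UMI) and 1 (SMC cluster present in every library alone), and ran from 5 to 9. With filterByExpr, members lower were 2 in FBs, 13 in ECs, 17 in T cells and 0 in mesothelial cells, and 1 was higher in B cells. With old libraries alone, 3 were lower in FBs, 12 in ECs and 4 in mesothelial cells, and 7 were higher in B cells and 19 in airway cells. With at least 1000 UMIs, 1 was lower in FBs, 5 in ECs, 4 in T cells and 3 in mesothelial cells. Without TMM, 5 were lower in T cells, 1 in mesothelial cells, and 5 were higher in airway cells. Leaving mitochondrial genes out of library sizes gave 22 lower in FBs, removing shared barcodes gave 5 lower in mesothelial cells, and DESeq2 gave 5 higher in C1q+ MΦs and 17 in B cells. Over libraries left out, lower members ran from 4 to 15 in FBs (4 without young replicate 1), 12 to 22 in ECs (12 without young replicate 1), 5 to 10 in T cells (5 without old replicate 3 or 4) and 3 to 8 in mesothelial cells (3 without young replicate 1 or old replicate 2), and higher ones from 3 to 15 in B cells (3 without young replicate 1), 2 to 4 in C1q+ MΦs and 20 to 36 in airway cells (20 without old replicate 4). In SMCs 34 to 56 members were called higher over libraries left out, and 61, 50 and 64 were higher without TMM, with DESeq2 and with filterByExpr.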

Other observations

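Rare cells outside the compared classes had other balances of the 2 genomes. In erythrocyte-like cells the nuclear-coded genes took 0.761% of UMIs in old replicate 2 (13 cells) and 0.720% in old replicate 3 (131 cells), below the 8 classes compared in the same libraries, and the mitochondrial-coded genes took 1.92% and 2.18% of all UMIs. In neutrophil-like cells the nuclear-coded share was 0.758% in old replicate 2 (19 cells) and 0.639% in old replicate 3 (73 cells), with 2.26% and 2.51% for mitochondrial-coded genes. In 14 platelet-like cells of old replicate 3 these were 1.99% and 5.82%. Erythrocyte-like cells also held 41 UMIs of Cox6b2, at 68.5 CPM. These values rest on 1 or 2 libraries and were not tested.

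Clusters left without a name held mostly cells of 1 library. One of 653 cells, 646 of them from old replicate 4, had all 7 smooth muscle and all 5 pericyte markers raised and was led by Tnnt2, with Cox4i2 at 34.9 CPM. Another of 352 cells, 276 of them from young replicate 2, was led by Gm10801 and Gm10800.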
